A study of Mus musculus with 8 samples.

Results

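The nuclear genes for subunits of the mitochondrial respiratory chain and of ATP synthase were followed in RNA of mouse embryonic stem cells (ESCs) from which a coactivator subunit had been depleted. Members were the protein-coding genes whose symbols begin with *Ndufa*, *Ndufb*, *Ndufc*, *Ndufs*, *Ndufv*, *Uqcr*, *Cox4* to *Cox8* or *Atp5*, or are *Sdha* to *Sdhd*. This rule took in 94 of 55401 counted genes, of which 21897 are annotated as protein-coding. By complex there were 38 genes of complex I, 4 of complex II, 8 of complex III, 18 of complex IV and 18 of complex V. The remaining 8 are *Ndufaf* genes, which encode assembly factors of complex I rather than subunits and are kept apart. Another 13 genes matched by symbol but are pseudogenes or noncoding and were left out.

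There were 2 libraries labelled Control, 3 labelled Zzz3_auxin and 3 labelled Yeats2_auxin, the last 2 groups being called ZZZ3-depleted and YEATS2-depleted here after their labels. ZZZ3 and YEATS2 belong to the ATAC coactivator complex. In the Zzz3-AID and Yeats2-AID lines the protein is fused to an auxin-inducible degron, which marks it for destruction by way of the receptor Tir1 once auxin is present, and auxin was given at 500 µM for 24 h. By the growth protocol, cells were kept in serum with LIF and 2 kinase inhibitors (2i), under selection for Tir1. Neither the line nor the treatment of Control is given by the labels, nor the number of clones behind a line. Effects of auxin itself or of the line cannot be told apart from those of depletion in either comparison with Control. Nothing says that libraries of 1 group came from separate cultures, so P values measure the spread between these libraries only, which may be technical. Raw counts of YEATS2-depleted replicates 1 and 3 were much closer than those of any other pair within a group. Their chi-square per gene was 3.71, beside 21.1 to 50.3 for the other pairs. These libraries may thus be less than 3 independent replicates, which was not tested.

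Oxidative phosphorylation passes electrons from NADH (complex I) or succinate (complex II) through ubiquinone, complex III and cytochrome c to oxygen at complex IV. The proton gradient made on the way drives ATP synthase, or complex V. Most subunits are encoded in the nucleus and imported, while a few hydrophobic core subunits of complexes I, III, IV and V come from mitochondrial DNA (mtDNA). ESCs grown with 2i are known to use both glycolysis and respiration.

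Libraries held 14315120 to 27884704 reads assigned to genes. All 8 ESC markers were abundant in every library, with the lowest value at 103 CPM (counts scaled to the size of each library, with TMM factors) for *Klf4*. The 4 fibroblast markers stayed at or below 1.22 CPM, with *Dcn* at 0, and the 3 muscle markers at or below 1.57 CPM. Markers of other lineages were not all near 0. Of the neuroectoderm markers, *Nes* had 35.9 to 68.0 CPM, and *Sox1* and *Pax6* reached 5.77 and 2.80. Of the mesendoderm markers, *T* reached 14.0, *Eomes* 9.77 and *Mixl1* 1.27 CPM. The endoderm markers *Gata4*, *Gata6* and *Sox17* stayed at or below 1.09 CPM. *Zzz3* mRNA was 186 and 182 CPM in Control, 77.5, 96.9 and 112 in ZZZ3-depleted libraries (log2 fold change -0.95, adjusted P 0.0187 by edgeR) and 183 to 191 in YEATS2-depleted libraries. *Yeats2* mRNA was 90.9 and 95.8 CPM in Control and 77.3, 103 and 43.7 in YEATS2-depleted libraries (log2 fold change -0.32, adjusted P 0.605 by edgeR). The degron acts on the protein, so mRNA checks the labels only in part. Control replicate 1 and ZZZ3-depleted replicate 3 stood apart in how levels followed the GC content of transcripts, and counts of members whose libraries do not overlap Control are given with and without them.

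The first question was whether subunit mRNAs differ in relative level between depleted cells and Control. Of the 94 members, 90 had enough reads to be tested. The exceptions were *Cox6a2*, *Cox8b*, *Cox8c* and 1 of the 2 identifiers that carry the symbol *Atp5o*. With ZZZ3 depleted, 1 of 90 passed at an adjusted P under 0.05 (edgeR's quasi-likelihood test, adjusted by Benjamini-Hochberg over all 17532 genes tested). This was *Atp5mpl*, a small membrane subunit of ATP synthase, which fell. Over all genes tested, 0.257% were called lower and 0.496% higher in this comparison. With YEATS2 depleted, edgeR called 0 of 90, beside 0.114% called lower and 0.331% higher over all genes. An unadjusted P was under 0.05 for 18 members (20%, beside 14.6% of all genes). DESeq2 called 4 lower, beside 3.02% of all genes called in either direction. No member had a log2 fold change beyond 1 against Control in either direction. Of the 17532 genes tested, 1044 did with ZZZ3 depleted and 786 with YEATS2 depleted.

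The members leaned downward by a small amount. Their median log2 fold change was -0.13 after ZZZ3 depletion, with 32 above 0 and 58 below, against 0.01 over all genes tested. After YEATS2 depletion it was -0.08, with 33 above 0 and 57 below, against -0.01 over all genes. By library, the members' median relative to the mean of both controls was -0.12, 0.04 and -0.15 with YEATS2 depleted. With ZZZ3 depleted it was -0.20, -0.07 and -0.02, and the controls lay at -0.04 and 0.04. YEATS2-depleted replicate 2 and ZZZ3-depleted replicate 3 thus lay between the controls. The YEATS2 lean came from replicates 1 and 3, the pair with the closest raw counts. An unadjusted P under 0.05 was found for 33 members (36.7%) with ZZZ3 depleted, 24 lower and 9 higher, beside 21.7% of all genes. With YEATS2 depleted these were 18 (20%), 16 lower and 2 higher, beside 14.6% of all genes. Both comparisons use the same 2 Control libraries.

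The lean can also be counted without a model. All 3 ZZZ3-depleted libraries lay below both controls for 35 members (38.9%, beside 18.9% of all genes) and above both for 6 (6.67%, beside 16.8%). For the YEATS2-depleted libraries these were 28 below (31.1%, beside 21%) and 8 above (8.89%, beside 19.3%). Among the 8658 protein-coding genes averaging 10 CPM or more, 24.4% lay below both controls with ZZZ3 depleted and 26.1% with YEATS2 depleted, and 16.8% and 20.6% above. Leaving out Control replicate 1 and ZZZ3-depleted replicate 3 was chosen after the data were seen, and it leaves 1 control. In that control, replicate 2, the members' median was the higher of both (0.04, beside -0.04), which can raise counts below it. These counts are thus no independent support for the lean. The remaining ZZZ3-depleted libraries lay below the remaining control for 63 members (70%, beside 36.5% of all genes) and above it for 11 (12.2%, beside 35.1%). The YEATS2-depleted libraries then lay below it for 40 (44.4%, beside 32.2%) and above it for 13 (14.4%, beside 29.5%). In the fit without both, an unadjusted P was under 0.05 for 18 members with ZZZ3 depleted (20%, beside 12.1% of all genes) and 18 with YEATS2 depleted (20%, beside 9.65%).

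**Figure D1:**
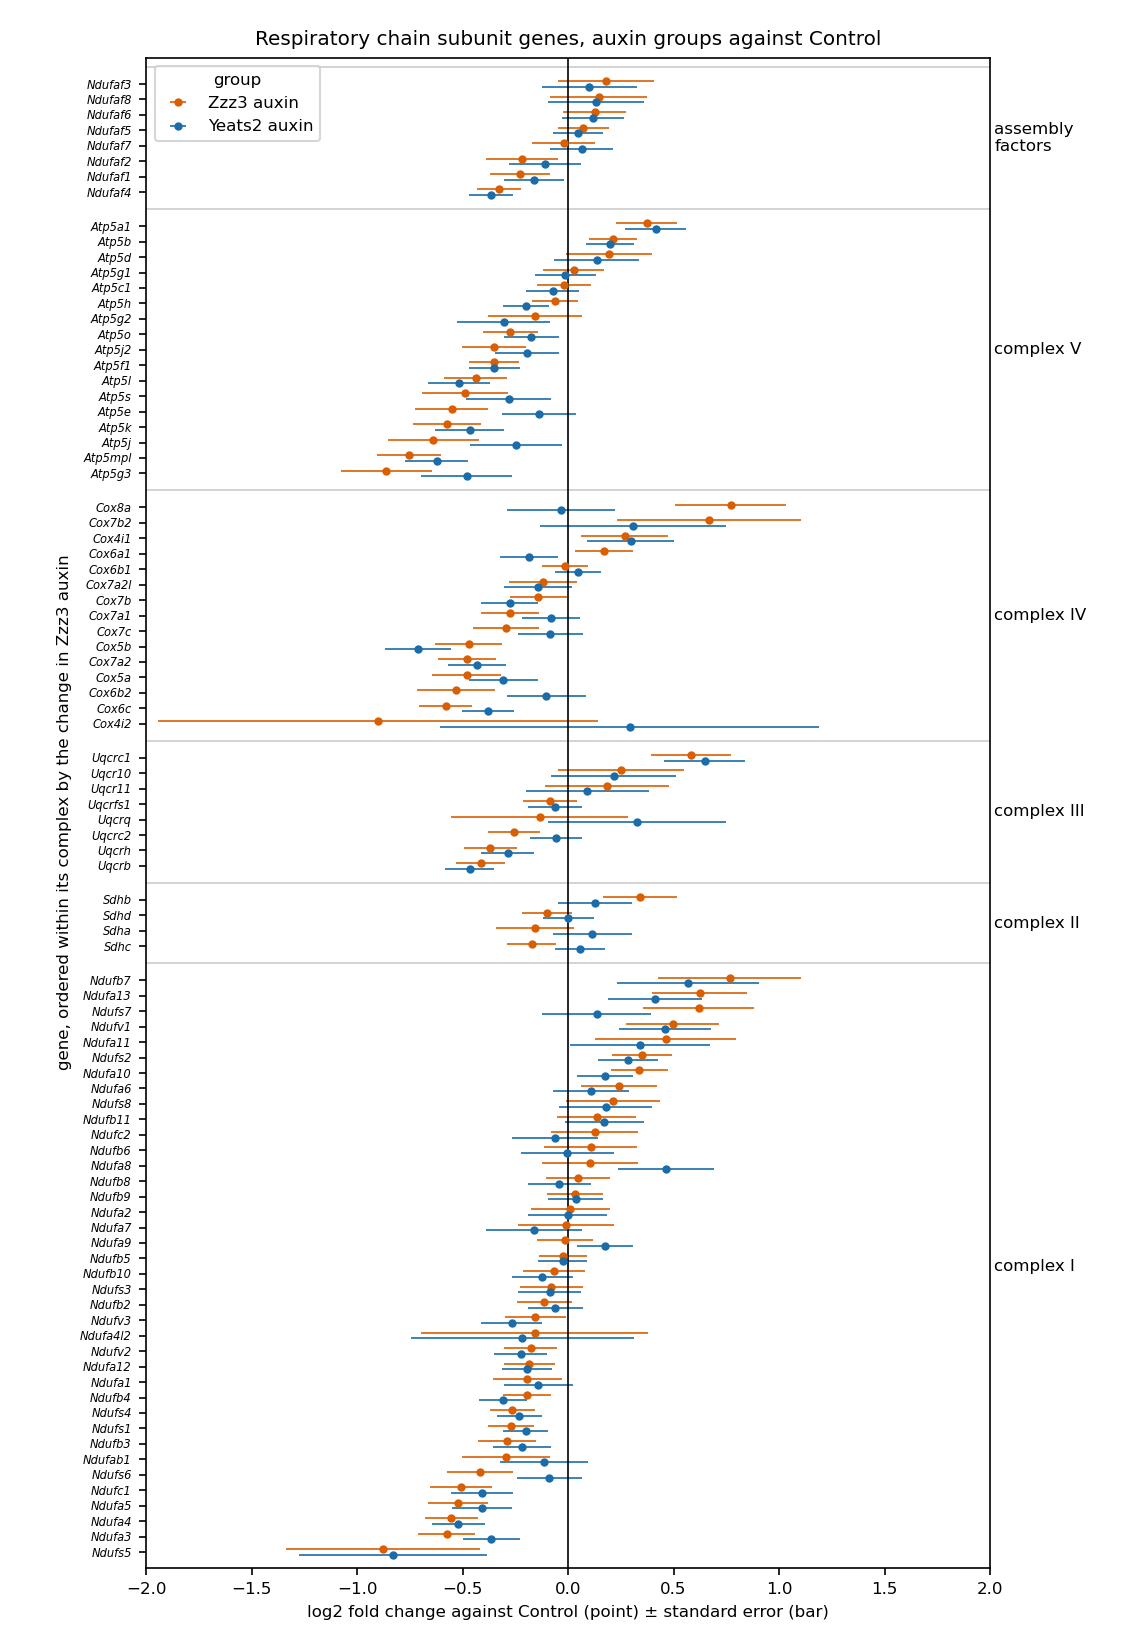
Log2 fold change of each of the 90 tested members against Control, with its standard error, by complex, for Zzz3 auxin and Yeats2 auxin. Most points lie within 0.5 of 0, complex V holds a run of genes to the left of 0, and Atp5a1, Atp5b and Uqcrc1 lie to the right in both groups.

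The summed relative level of these genes was alike in the 3 groups. CPM are relative to each library, so they do not give the amount of message per cell. Summed over all members the level was 14105 ± 1063 CPM in Control (SD, n = 2), 13915 ± 834 with ZZZ3 depleted (SD, n = 3) and 14157 ± 1132 with YEATS2 depleted (SD, n = 3), or 1.41% of assigned reads on average. Complex V alone gave 6092 ± 478, 6314 ± 283 and 6466 ± 440.1 CPM in the same order. Its sum did not follow its median, since *Atp5a1* and *Atp5b*, its most abundant genes, lay above Control while most other complex V genes lay below. Complex IV summed to 2346 ± 164, 2126 ± 183 and 2117 ± 174 CPM, and complex I to 3456 ± 319.9, 3340 ± 326 and 3305 ± 305.

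Promoters were examined because many respiratory genes are known targets of the factors NRF1, GABPA and YY1. RefSeq windows of 250 bases before to 50 after a start (GRCm38.p6) matched 77 of the 94 members. The NRF1 motif was searched as the 8 letters CGCATGCG between a G and a C, GABPA as CCGGAAG and YY1 as AAGATGGC, on both strands. A looser NRF1 form (GCGC, any letter, TGCGC) includes the strict one. The strict form was present in 7 of 77 members (9.09%) and in 1.52% of 16907 protein-coding genes with a window, and the looser form in 20 (26.0%), beside 7.405%. GABPA letters were present in 18 members (23.4%, beside 13.2%) and YY1 letters in 11 (14.3%, beside 3.61%). Among genes tested, the looser NRF1 form stood in 25.3% of 75 members and 11.1% of 10867 protein-coding genes. For GABPA these shares were 24% and 19.2%, for the strict NRF1 form 9.33% and 2.255%, and for YY1 14.7% and 4.99%. Whether members with a motif had the higher or lower median varied by motif. The 7 tested members with the strict NRF1 form had median log2 fold changes of 0.07 (ZZZ3 depleted) and -0.19 (YEATS2 depleted), and the 68 without it -0.12 and -0.09. The 19 with the looser form had -0.15 and -0.17, and the 56 without it -0.10 and -0.09. The 18 with GABPA letters had -0.04 and -0.06, and the 57 without -0.15 and -0.10. The 11 members with YY1 letters had medians of -0.35 and -0.19, and the 64 without -0.09 and -0.09.

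The windows of 4 members are shown to set genes that lay above Control after both depletions (Uqcrc1 and Atp5b) beside genes that lay below it (Atp5k and Ndufa4). Capitals mark letters that match a searched motif. Uqcrc1 holds the looser NRF1 form and, further downstream, the strict one, Atp5k holds the strict form and CCGGAAG on the opposite strand, and the other two hold no match. Both kinds of gene thus occur with and without these letters.
Uqcrc1 (chr9:108936398-108936697, plus strand): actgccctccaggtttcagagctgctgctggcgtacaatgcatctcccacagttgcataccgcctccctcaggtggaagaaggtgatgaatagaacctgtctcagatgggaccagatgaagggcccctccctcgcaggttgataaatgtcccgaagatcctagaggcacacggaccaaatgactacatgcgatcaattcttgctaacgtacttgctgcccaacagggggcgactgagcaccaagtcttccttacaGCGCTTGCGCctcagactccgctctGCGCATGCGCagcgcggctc
Atp5b (chr10:128083057-128083356, plus strand): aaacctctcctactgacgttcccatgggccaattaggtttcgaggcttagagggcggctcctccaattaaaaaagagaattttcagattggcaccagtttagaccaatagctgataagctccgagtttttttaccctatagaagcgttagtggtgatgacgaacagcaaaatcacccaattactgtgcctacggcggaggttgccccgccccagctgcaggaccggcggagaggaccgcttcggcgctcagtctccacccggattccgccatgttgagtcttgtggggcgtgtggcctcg
Atp5k (chr5:108434350-108434649, minus strand): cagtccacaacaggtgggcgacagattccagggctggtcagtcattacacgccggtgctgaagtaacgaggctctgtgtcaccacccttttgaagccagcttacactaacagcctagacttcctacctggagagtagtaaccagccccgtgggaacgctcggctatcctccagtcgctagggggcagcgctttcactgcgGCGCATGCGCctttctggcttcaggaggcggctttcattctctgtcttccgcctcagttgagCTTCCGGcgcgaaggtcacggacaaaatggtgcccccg
Ndufa4 (chr6:11907401-11907700, minus strand): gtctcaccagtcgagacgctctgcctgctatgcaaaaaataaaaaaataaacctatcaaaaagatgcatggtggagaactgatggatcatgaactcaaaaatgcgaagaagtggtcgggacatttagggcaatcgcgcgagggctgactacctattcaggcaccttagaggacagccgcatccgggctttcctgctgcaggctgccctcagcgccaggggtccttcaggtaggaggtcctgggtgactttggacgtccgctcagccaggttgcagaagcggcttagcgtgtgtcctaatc

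Complex I, NADH dehydrogenase, was the largest group. It has 7 nuclear-encoded core subunits, which carry the flavin and the iron-sulfur clusters, and the other 31 genes encode accessory subunits. The median log2 fold change over all 38 genes was -0.04 after ZZZ3 and -0.07 after YEATS2 depletion, with 0 called by edgeR in either. DESeq2 called 4 and 1, beside 8.21% and 3.02% of all genes. An unadjusted P was under 0.05 for 13 (34.2%, beside 21.7% of all genes) and 5 (13.2%, beside 14.6%), so that the count for YEATS2 was below the share of all genes. These medians turn on single libraries, running from -0.14 to 0.04 and from -0.16 to -0.01 when 1 was left out, with the ends set by ZZZ3-depleted replicates 3 and 1 and by YEATS2-depleted replicates 2 and 3. The core subunits had medians of 0.21 and 0.14 and the accessory subunits of -0.07 and -0.09. Without Control replicate 1 and ZZZ3-depleted replicate 3 the core medians turned to -0.20 and -0.13, beside -0.23 and -0.11 for the accessory genes. Relative to the mean of both controls, the median of the core genes was -0.20 in Control replicate 1 and 0.20 in replicate 2, which mirror each other by definition. It was 0.17, 0.03 and 0.45 in the ZZZ3-depleted and 0.11, 0.16 and 0.06 in the YEATS2-depleted libraries.

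*Ndufa4* (chromosome 6, 11900292 to 11907497, minus strand), listed with complex I by name but since assigned to complex IV, had the highest level per length of the *Nduf* genes. It measured 347 and 364 CPM in Control, 215, 254 and 258 with ZZZ3 depleted and 236, 276 and 231 with YEATS2 depleted. All 6 auxin libraries lay below both controls, yet neither difference passed (log2 fold change -0.55, SE 0.12, edgeR adjusted P 0.0651, and -0.52, SE 0.12, adjusted P 0.107). Correction for GC content and length took this GC-poor gene (40.3%) to -0.29 and -0.31. *Ndufa3*, an accessory subunit of the membrane arm, had 129 and 139 CPM in Control, 76.0, 98.9 and 94.4 with ZZZ3 depleted and 108, 109 and 93.7 with YEATS2 depleted. The groups did not overlap, and the log2 fold changes were -0.57 (edgeR adjusted P 0.0704) and -0.36 (adjusted P 0.246).

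*Ndufb7*, another accessory subunit, was the most positive gene of complex I (log2 fold changes 0.77 and 0.57), but its controls already differed, at 21.3 and 43.8 CPM. Its auxin libraries had 39.4 to 77.6 CPM, which overlap Control, and the log2 fold changes ran from 0.34 to 1.38 and from 0.14 to 1.18 between fits without Control replicate 1 and without replicate 2. *Ndufs5*, singled out after its values were seen, had under 1 CPM in every library, and its log2 fold changes of -0.88 and -0.83 rest on few reads, with 46.9% of its transcript repeated nearly identically elsewhere.

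Complex II, succinate dehydrogenase, links the TCA cycle to the chain and is encoded wholly in the nucleus. None of its 4 genes was called after either depletion by edgeR (beside 0.753% and 0.445% of all genes) or DESeq2 (beside 8.21% and 3.02%). None had an unadjusted P under 0.05 (beside 21.7% and 14.6%). For 4 genes, counts of 0 are not far from these shares. All log2 fold changes lay between -0.17 and 0.34. *Sdha*, the flavoprotein with the active site, had 336 and 316 CPM in Control, 326, 348 and 202 with ZZZ3 depleted and 356, 360.4 and 342 with YEATS2 depleted. The lowest value came from ZZZ3-depleted replicate 3, and the other libraries differed by little. *Sdhb*, the iron-sulfur subunit, had 69.1 and 90.4 CPM in Control, 101, 81.2 and 121 with ZZZ3 depleted and 81.7, 96.3 and 83.4 with YEATS2 depleted, with overlap throughout. *Sdhc*, a membrane anchor, had 101 and 100.5 CPM in Control, 83.5, 99.9 and 84.1 with ZZZ3 depleted and 99.9, 108 and 105 with YEATS2 depleted. *Sdhd*, the other anchor and the complex II gene with the highest level per length, had 185 and 189.9, then 155, 179 and 192, then 186, 199 and 179 CPM.

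Complex III, the cytochrome bc1 complex, had medians of -0.11 after ZZZ3 and 0.02 after YEATS2 depletion over 8 genes, with 0 called by edgeR. An unadjusted P was under 0.05 for 3 in each (37.5%, beside 21.7% and 14.6% of all genes). DESeq2 called 1 in each, beside 8.21% and 3.02% of all genes. The YEATS2 median ran from -0.10 to 0.17 when 1 library was left out, the lower end without YEATS2-depleted replicate 2 and the upper without Control replicate 2. Its genes differed in direction. *Uqcrc1*, core protein 1 (chromosome 9, 108936633 to 108949623, plus strand), had 148 and 233 CPM in Control, 282, 265 and 309 with ZZZ3 depleted and 269.5, 356 and 269.8 with YEATS2 depleted. Every auxin library exceeded both controls, with a log2 fold change of 0.58 (SE 0.19, edgeR adjusted P 0.123) and 0.65 (SE 0.19, adjusted P 0.166). The size rests on the controls, since the log2 fold change ran from 0.29 to 0.95 and from 0.35 to 1.02 when 1 library was left out, the lower ends without Control replicate 1 and the upper without replicate 2.

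*Uqcrb*, a small subunit of the same complex, went the other way, with 138 and 135 CPM in Control, 104, 109.6 and 93.4 with ZZZ3 depleted and 91.2, 106 and 99.2 with YEATS2 depleted (log2 fold changes -0.41 and -0.47, edgeR adjusted P 0.0908 and 0.120). Near-identical copies elsewhere in the genome cover 62.8% of its transcript, and correction for GC content and length took its log2 fold changes to -0.15 and -0.25. *Uqcr10*, a small membrane subunit, had the highest level per length of the complex, 270.1 CPM per kilobase, and varied within groups, with 105 and 174 CPM in Control and 126, 143 and 229.7 with ZZZ3 depleted.

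**Figure D2:**
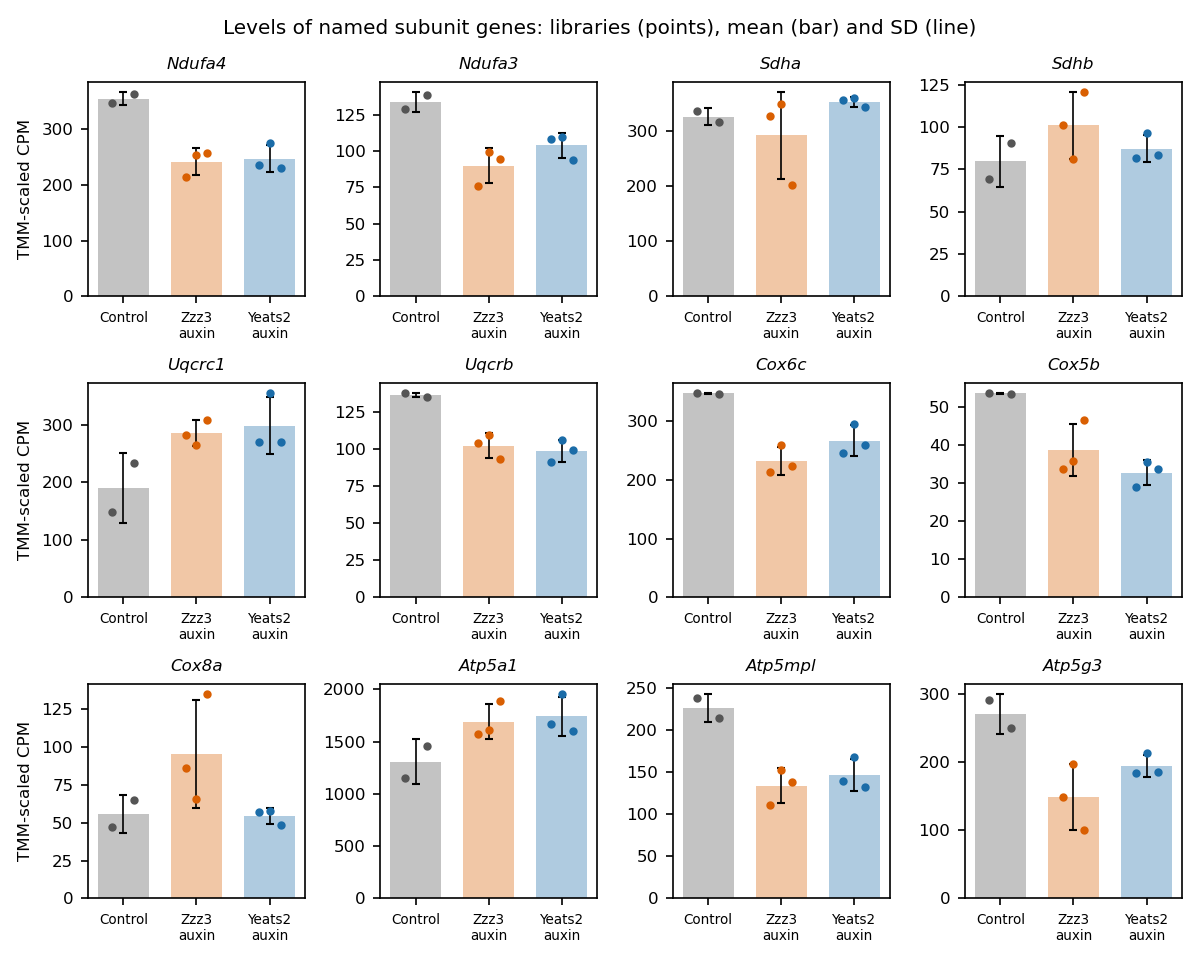
Level of 12 named subunit genes in each library (points, TMM-scaled CPM), with the group mean as a bar and the SD as a line (n = 2 in Control, 3 in each auxin group). Atp5mpl, Atp5g3, Ndufa4, Ndufa3, Uqcrb, Cox6c and Cox5b lie below both controls in all 6 auxin libraries, Uqcrc1 and Atp5a1 lie above, and Cox8a is highest in Zzz3 auxin replicate 3.

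Complex IV, cytochrome c oxidase, had medians of -0.28 after ZZZ3 and -0.10 after YEATS2 depletion over 15 tested genes, with 11 of 15 below 0 in each. EdgeR called 0, and an unadjusted P was under 0.05 for 6 and 3 genes (40% and 20%, beside 21.7% and 14.6% of all genes). DESeq2 called 3 and 1, beside 8.21% and 3.02% of all genes. With ZZZ3 depleted 7 genes lay below both controls in all libraries (46.7%, beside 18.9%) and 2 above (13.3%, beside 16.8%), and with YEATS2 depleted 6 (40%, beside 21%) and 0 (beside 19.3%). *Cox6c*, a small transmembrane subunit, had 348 and 346 CPM in Control, 214, 259 and 223 with ZZZ3 depleted and 245, 295 and 259 with YEATS2 depleted. The depleted groups lay wholly below Control, with a log2 fold change of -0.58 (SE 0.12, edgeR adjusted P 0.0545) and -0.38 (SE 0.12, adjusted P 0.198). *Cox5b*, a zinc-binding subunit on the matrix side, had 53.6 and 53.4 CPM in Control, 33.6, 35.8 and 46.6 with ZZZ3 depleted and 29.0, 35.5 and 33.6 with YEATS2 depleted. It had the smallest adjusted P of any member in the YEATS2 comparison (log2 fold change -0.71, SE 0.16, edgeR adjusted P 0.0841), and 50.9% of its transcript lies in near-identical copies.

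*Cox8a*, a small membrane subunit, was the most positive member after ZZZ3 depletion. It had 47.0 and 64.8 CPM in Control, 85.8, 65.5 and 135 with ZZZ3 depleted and 57.1, 58.0 and 48.5 with YEATS2 depleted. Its log2 fold change of 0.77 (SE 0.26, edgeR adjusted P 0.135) ran from 0.45 to 1.03 over fits that each left out 1 library, between ZZZ3-depleted replicate 3 and Control replicate 2. *Cox4i1*, the usual form of subunit 4 and the most positive complex IV gene after YEATS2 depletion (log2 fold change 0.30, edgeR adjusted P 0.530), had 265 and 402 CPM in Control and 347 to 493 in the auxin libraries, which overlap. Its log2 fold change ran from 0.03 to 0.63 between fits without Control replicate 1 and without replicate 2. *Cox6b1*, the complex IV gene with the highest level per length, was even, at 339 and 375 CPM in Control and 336 to 382 in the auxin libraries.

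Complex V, ATP synthase, had the lowest medians of the 5 complexes, -0.35 after ZZZ3 and -0.20 after YEATS2 depletion over 17 tested genes. Its F1 part is the catalytic head in the matrix, and the peripheral stalk and membrane part hold it and carry protons. The 5 F1 genes had medians of 0.19 after ZZZ3 and 0.14 after YEATS2 depletion, with 3 of 5 above 0 in each, but without Control replicate 1 and ZZZ3-depleted replicate 3 these turned to -0.16 and -0.11. The 12 other tested genes had medians of -0.40 and -0.29, with 11 and 12 below 0. Of these 12, 9 lay below both controls in all ZZZ3-depleted libraries (75%, beside 18.9% of all genes) and 8 in all YEATS2-depleted libraries (66.7%, beside 21%). An unadjusted P was under 0.05 for 8 and 5 (66.7% and 41.7%, beside 21.7% and 14.6% of all genes). Without those 2 libraries the medians of the 12 were -0.39 and -0.29, and 10 (beside 36.5% of all genes) and 10 (beside 32.2%) lay below the remaining control. By library, the median of the 12 genes relative to the mean of both controls was -0.56, -0.26 and -0.26 with ZZZ3 depleted and -0.39, -0.20 and -0.33 with YEATS2 depleted. The controls had 0.03 and -0.03, which mirror each other because their mean is the reference, so they show only how far apart both lie.

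*Atp5mpl* (chromosome 12, 111961375 to 111966977, minus strand) was the member that passed. It had 238 and 214 CPM in Control, 111, 153 and 138 with ZZZ3 depleted and 139, 168 and 133 with YEATS2 depleted. Both depleted groups lay wholly below Control. Its log2 fold change was -0.76 (SE 0.15, edgeR adjusted P 0.0478) with ZZZ3 depleted and -0.62 (SE 0.15, adjusted P 0.111) with YEATS2 depleted, and no stretch of its transcript had a near-identical copy. The call lies at the threshold. It was lost without either Control replicate, in fits that keep 1 control. It was also lost without ZZZ3-depleted replicate 1 (edgeR adjusted P 0.114), or YEATS2-depleted replicate 1 (0.108), 2 (0.0679) or 3 (0.0953). Calls over all genes fell too, to 0.0807%, 0.0173%, 0.161% and 0.0686% in the same order, beside 0.753% in the main fit. The loss was thus not particular to *Atp5mpl*, whose log2 fold change stayed within -0.86 to -0.62.

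*Atp5k*, subunit e of the membrane part, was singled out after its values were seen. It had 254 and 295 CPM in Control, 142, 192 and 219.6 with ZZZ3 depleted and 201, 207 and 188 with YEATS2 depleted, with log2 fold changes of -0.57 (edgeR adjusted P 0.0921) and -0.47 (adjusted P 0.223). The c subunit, which forms the rotating ring, is encoded by 3 genes for the same mature protein, and *Atp5g3* gave most of this message. *Atp5g3* had 292 and 249.9 CPM in Control, 149.6, 197 and 100.1 with ZZZ3 depleted and 184, 213 and 186 with YEATS2 depleted, below Control throughout (log2 fold change -0.86, SE 0.22, edgeR adjusted P 0.0762, and -0.48, adjusted P 0.334). *Atp5g1* overlapped Control, at 34.7 and 46.3 CPM there and 38.5 to 45.0 in the auxin libraries, and *Atp5g2* stayed between 5.11 and 8.14 CPM. The share of *Atp5g3* in the summed level per length was 91.0% ± 1.18 in Control, 84.1% ± 5.67 with ZZZ3 depleted and 88.6% ± 0.510 with YEATS2 depleted (SD, n = 2, 3 and 3). Near-identical copies cover 13.2% of the *Atp5g1* and 16.9% of the *Atp5g2* transcript, but none of *Atp5g3*. Merged exons measure 4912, 1675 and 2181 bases in that order, so copies and length both bear on this share.

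The 2 main catalytic genes lay above Control. *Atp5b*, the beta subunit (chromosome 10, 128083273 to 128090391, plus strand), had 2250 and 2557 CPM in Control, 2773, 2895 and 2682 with ZZZ3 depleted and 2667, 2863 and 2748 with YEATS2 depleted. *Atp5a1*, the alpha subunit (chromosome 18, 77773729 to 77782869, plus strand), had 1156 and 1459 CPM in Control, 1574, 1616 and 1888 with ZZZ3 depleted and 1665, 1959 and 1607 with YEATS2 depleted. Every auxin library exceeded both controls for both genes, though the controls themselves lay far apart. The log2 fold changes were 0.21 and 0.20 for *Atp5b* and 0.37 and 0.42 for *Atp5a1*, with edgeR adjusted P from 0.173 to 0.436. For *Atp5a1* they ran from 0.21 to 0.55 and from 0.26 to 0.60 between fits without Control replicate 1 and without replicate 2. *Atp5e*, the epsilon subunit of the same head, chosen after its values were seen, had 94.3 and 109.6 CPM in Control and 67.2, 80.6 and 60.5 with ZZZ3 depleted, all lower, so the F1 genes did not share 1 direction.

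**Figure D3:**
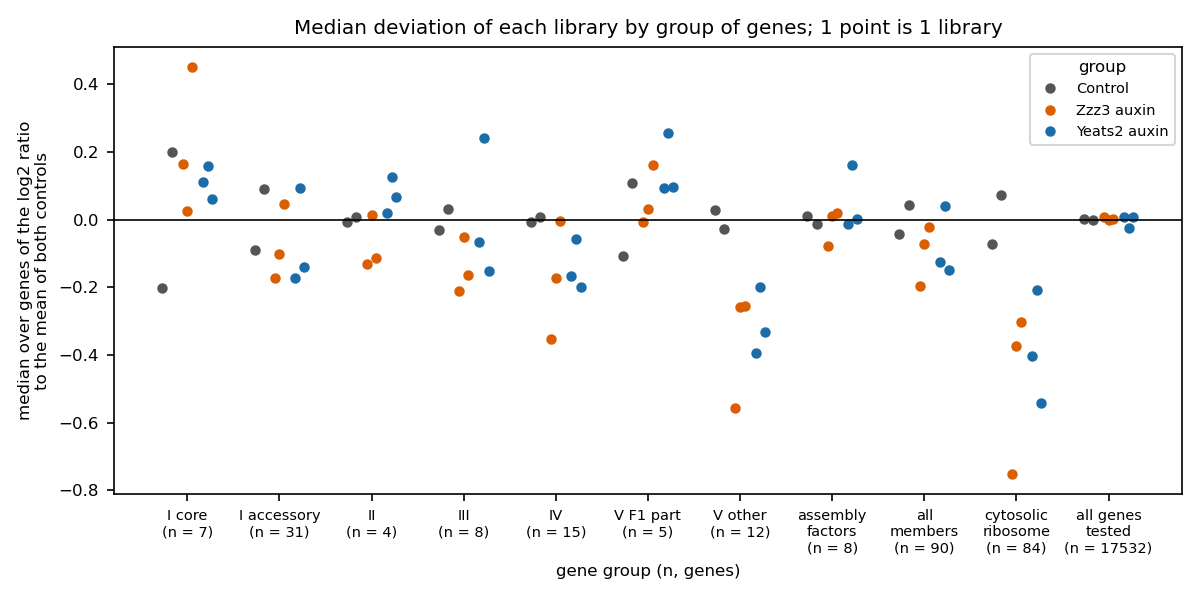
Median over genes of the log2 ratio of each library to the mean of both controls, by group of genes (1 point per library). In complex V outside the F1 part all 6 auxin libraries lie at -0.20 or below, the core genes of complex I spread from -0.20 to 0.45, and all genes tested lie near 0. The controls lie at both sides of 0 in each group because their mean is the reference.

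The 8 *Ndufaf* genes, which encode factors that help build complex I, had medians of 0.03 and 0.05, with 0 called by edgeR or DESeq2. An unadjusted P was under 0.05 for 1 after each depletion (12.5%, beside 21.7% and 14.6% of all genes). *Ndufaf4* was that gene, with 85.9 and 84.6 CPM in Control, 68.2, 67.9 and 67.9 with ZZZ3 depleted and 64.9, 66.1 and 67.4 with YEATS2 depleted. Its replicates were close together and did not overlap Control (log2 fold change -0.33, SE 0.10, edgeR adjusted P 0.118, and -0.37, SE 0.10, adjusted P 0.155). Its transcript is GC-poor (39.5%), and correction for GC content and length took these values to -0.09 and -0.17. *Ndufaf1* had the highest level per length, with 52.9 and 52.0 CPM in Control and 37.1 to 50.4 in the auxin libraries. *Ndufaf3* was the most positive after ZZZ3 depletion (log2 fold change 0.18) and *Ndufaf8* after YEATS2 depletion (0.13), both overlapping Control and not stable in sign under other processing.

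The depletions were then compared directly. For YEATS2-depleted against ZZZ3-depleted libraries, edgeR called 0 of 90 members, and over all genes 0% were called lower and 0% higher. The median log2 fold change of the members was 0.0021, with 46 above 0 and 44 below, and 5 (5.56%) had an unadjusted P under 0.05, beside 6.25% of all genes. DESeq2 called 0 members and 0.0171% of all genes. In 4 members (4.44%, beside 5.25% of all genes) all YEATS2-depleted libraries lay above all ZZZ3-depleted ones, and in 5 (5.56%, beside 5.82%) below. *Cox8a* was furthest apart among members averaging at least 2 CPM, with a log2 fold change of -0.81 (SE 0.23, edgeR adjusted P 0.779). The other 4 with an unadjusted P under 0.05, named after their values were seen, were *Cox6a1* (-0.36) on the same side and *Ndufs6* (0.33), *Cox6b2* (0.43) and *Atp5e* (0.42) on the other. *Cox4i2*, with 41 reads in all libraries together, was the 1 member beyond a log2 fold change of 1, beside 347 of 17532 genes tested.

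Levels between genes were compared per kilobase of merged exons. *Atp5b* stood highest with 632 CPM per kilobase on average, followed by *Atp5a1* (515), *Cox6b1* (509), *Atp5k* (345) and *Cox7a2* (275). In Control, *Atp5b* (567 ± 51.3), *Cox6b1* (505 ± 36.2) and *Atp5k* (446 ± 47.1) had SD ranges that overlap from each to the next. Subunits of 1 complex did not share 1 level. The medians were 46.7 CPM per kilobase in complex I, 59.4 in II, 114 in III, 62.0 in IV, 57.6 in V and 11.7 for the assembly factors. Single genes listed with complex I ranged from 0.402 (*Ndufa4l2*) to 197 (*Ndufa4*, since assigned to complex IV). Apart from this pair, they ranged from 0.512 (*Ndufs5*) to 126 (*Ndufb9*). Copies cover 46.9% of the *Ndufs5* transcript, which can lower its count, and *Ndufb2*, without copies, had 6.195.

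Several subunits of complex IV come in a broadly expressed form and in forms known from heart and skeletal muscle, testis or lung. In these ESCs *Cox4i1* made up 99.8% to 100% of the *Cox4i* level per length, with 41 reads in all for *Cox4i2*, the form known from lung, and *Cox7b* made up 99.4% to 99.8% of its pair with *Cox7b2*, a testis form. *Cox6a2* and *Cox8b*, the muscle forms, had 0 reads in all 8 libraries, which allows up to 0.109 to 0.201 CPM per library (3 reads, counting error only), and *Cox8c*, a testis form, had 9 reads in all. *Cox6b2*, known from testis, was detected throughout. Its share of the *Cox6b* pair was 6.68% ± 0.463 in Control, 4.75% ± 1.19 with ZZZ3 depleted and 6.05% ± 0.538 with YEATS2 depleted, and with ZZZ3 depleted its level lay below both controls in all libraries (log2 fold change -0.53, SE 0.19, edgeR adjusted P 0.140).

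The *Cox7a* family was the most mixed. *Cox7a1*, known as the heart and muscle form, had 31.8 and 34.9 CPM in Control and 24.3 to 32.2 in the auxin libraries, or 12.5% to 16.5% of the family per length, although muscle markers were near 0. *Cox7a2l*, which joins complexes III and IV in supercomplexes, made up 14.9% ± 0.317 in Control, 14.7% to 20.6% over all libraries. The main form, *Cox7a2*, had 325 and 328 CPM in Control, 198, 259 and 244 with ZZZ3 depleted and 228, 272 and 225 with YEATS2 depleted, wholly below Control (log2 fold changes -0.48 and -0.43, edgeR adjusted P 0.0936 and 0.185). *Ndufa4l2*, the hypoxia-linked relative of *Ndufa4*, had 80 reads in all.

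**Figure D4:**
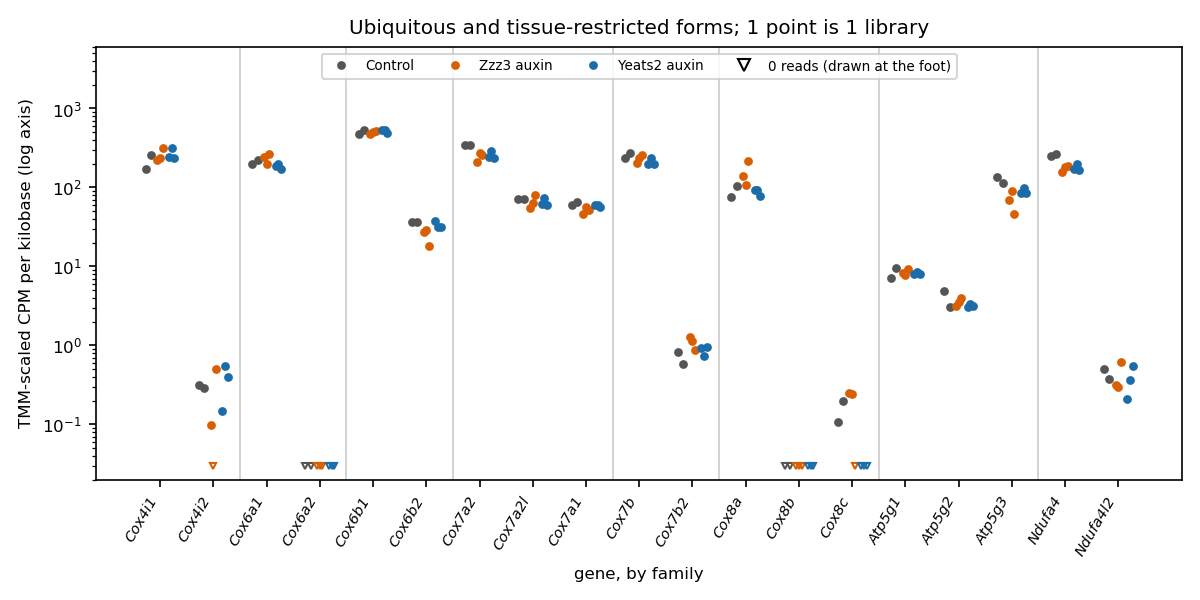
Level per kilobase of merged exons (TMM-scaled CPM, log axis) of alternative forms of subunits, by family, 1 point per library, with open triangles for libraries with 0 reads. Cox6a2 and Cox8b have no read in any library, whereas Cox7a1 and Cox6b2 are detected in every library at 18.1 to 65.3 CPM per kilobase.

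The differences followed the base composition of the transcripts. Across the 86 members averaging at least 2 CPM, the log2 fold change correlated with the GC content of the longest transcript of each gene. Pearson r was 0.52 (Spearman rho 0.53) for ZZZ3 and 0.45 (0.47) for YEATS2 depletion. These are descriptions across genes, which share libraries and are not independent replicates. The 45 members above the median GC content had a median log2 fold change of 0.10 with ZZZ3 depleted and 0.09 with YEATS2 depleted, and the 45 others -0.23 and -0.14. The same trend ran through other genes. Over the 8658 protein-coding genes averaging 10 CPM or more, r was 0.60 and 0.52, and genes above and below the same GC value had medians of 0.20 and -0.15 (ZZZ3) and 0.14 and -0.11 (YEATS2). The gap between GC-rich and GC-poor members was -0.11 in Control replicate 1 and 0.11 in replicate 2, then 0.23, 0.14 and 0.50 in the ZZZ3-depleted and 0.18 to 0.20 in the YEATS2-depleted libraries. Both control values mirror each other because the mean of the controls is the reference. Control replicate 1 and ZZZ3-depleted replicate 3 marked the ends.

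When the trend on GC content and length was taken out of each library, r among the 86 members became 0.02 and 0.0023, and the members' medians -0.10 and -0.07. The calls then were *Atp5k*, *Atp5mpl* and *Ndufa3* with ZZZ3 depleted (beside 0.953% of all genes) and *Atp5k* and *Atp5mpl* with YEATS2 depleted (beside 0.753%), all lower, and 0 in the direct comparison (beside 0%). *Atp5mpl* then had log2 fold changes of -0.88 (edgeR adjusted P 0.0245) and -0.73 (0.0461), and *Atp5k* of -0.77 (0.0217) and -0.60 (0.0472). The complex V genes outside F1 kept medians of -0.30 and -0.24, whereas the F1 genes went to -0.02 and -0.08 and the core genes of complex I to 0.07 and -0.06. *Uqcrc1* went to 0.47 and 0.55, *Atp5a1* to 0.20 and 0.28, and *Cox8a* to 0.42 and -0.22.

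**Figure D5:**
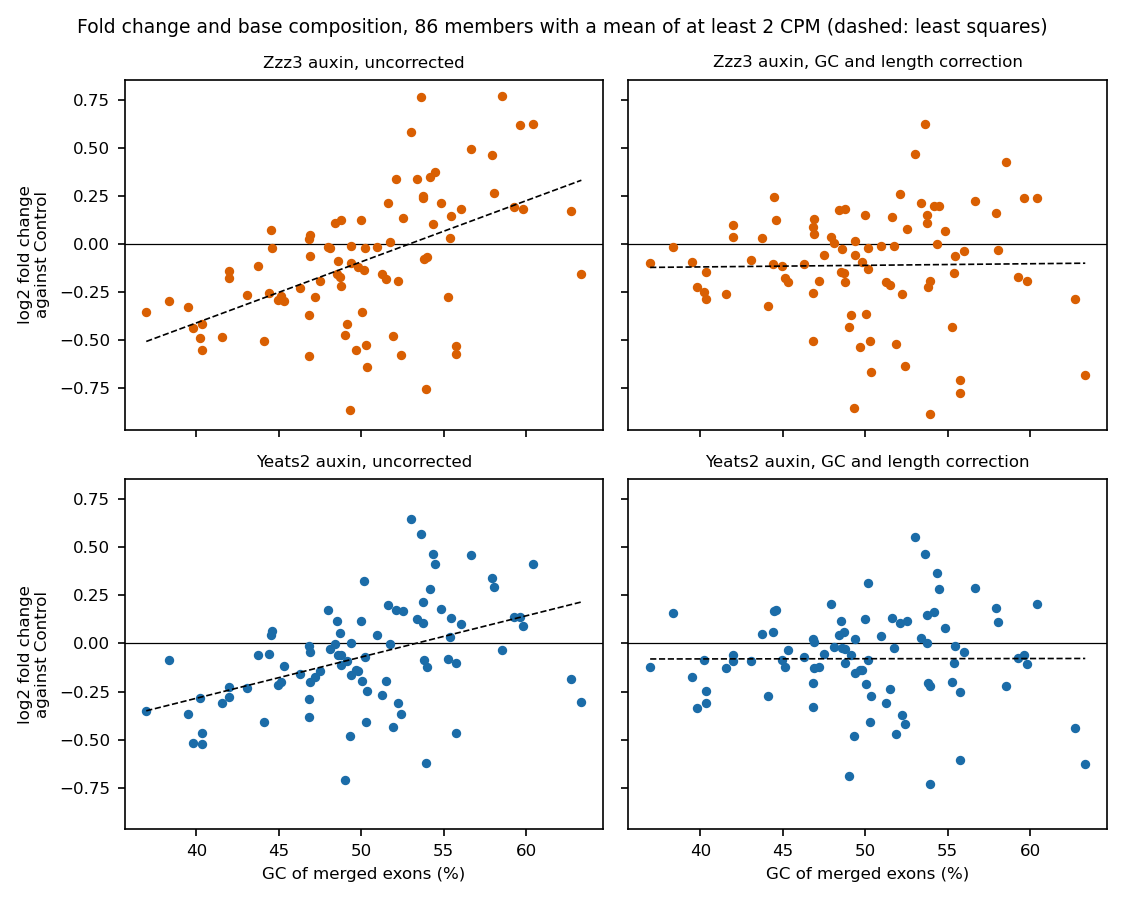
Log2 fold change against Control of the 86 members with a mean of at least 2 CPM, by GC content (%), before (left) and after (right) the GC and length correction, with least squares lines. GC content is that of the longest transcript of each gene, although the axis label names merged exons. The slope seen on the left is gone on the right, while Atp5mpl (53.9% GC) and Atp5k (55.8% GC) stay low.

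The tool mattered as well. DESeq2, the tool of the study, called 11 of the 86 members it gave an adjusted P with ZZZ3 depleted (beside 8.21% of all genes with one), 10 lower and *Cox8a* higher. With YEATS2 depleted it called 4 of 86 (beside 3.02%), all lower, namely *Atp5mpl*, *Cox5b*, *Ndufa4* and *Uqcrb*. The lower calls with ZZZ3 depleted were *Atp5mpl*, *Atp5g3*, *Atp5k*, *Cox6c*, *Cox7a2*, *Ndufa3*, *Ndufa4*, *Ndufa5*, *Ndufc1* and *Uqcrb*.

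Uniquely aligned reads alone were counted, so genes with near-identical copies can lose reads. Stretches of at least 50 bases at 97% identity or more in another gene were found for 20 tested members, with the largest shares of the transcript in *Atp5h* (80.1%), *Atp5o* (76.7%) and *Ndufs3* (75.7%). Their medians were -0.28 with ZZZ3 depleted and -0.20 with YEATS2 depleted, with 18 of 20 below 0 in each, and those of the 70 members without such copies -0.04 and -0.04. Levels of these 20 are uncertain, and the part of the copies in their differences was not tested. The exons of 29 members overlap a gene on the opposite strand, as *Atp5j* does with *Gabpa*, and the strand setting of the counting is not stated.

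The rest of the pathway gave few calls. Over all genes, 21.7% with ZZZ3 depleted and 14.6% with YEATS2 depleted had an unadjusted P under 0.05. Of 13 subunits encoded in mtDNA, 7 were tested and 0 called by edgeR or DESeq2. Their medians were -0.41 with ZZZ3 depleted and -0.44 with YEATS2 depleted, with 1 and 0 (14.3% and 0%) at an unadjusted P under 0.05. Correction for GC content and length took these medians to -0.12 and -0.19. YEATS2-depleted replicate 2 stood apart, with a median of -1.40 relative to the controls. The other 6, which include *mt-Co2*, *mt-Co3* and *mt-Atp6*, had at most 1 read in any library. Further assembly factors (42 tested) had medians of -0.10 and -0.07, with 11 and 9 (26.2% and 21.4%) at an unadjusted P under 0.05. Electron carriers such as cytochrome c and the ubiquinone pathway (15 tested) had 0.18 and 0.20 (6 and 3, or 40% and 20%). TCA cycle enzymes (13 tested) had 0.03 and 0.02 (3 and 1, or 23.1% and 7.69%). Mitochondrial ribosomal proteins (77 tested) had 0.02 and 0.08 (13 and 6, or 16.9% and 7.79%). Regulators of respiratory genes and mtDNA (15 tested) had 0.03 and -0.01 (4 and 3, or 26.7% and 20%). EdgeR called 0 genes of these 5 lists after either depletion. DESeq2 called 3, 0, 1, 4 and 3 in that order with ZZZ3 depleted, beside 8.21% of all genes. With YEATS2 depleted it called 0, 0, 0, 1 and 0, beside 3.02%.

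Cytosolic ribosomal protein genes leaned further than the respiratory genes. Near-identical copies were searched for the members only, so their part in this list was not tested. Of 84 tested, 8 fell with ZZZ3 depleted and 4 with YEATS2 depleted, beside the 0.257% and 0.114% of all genes called lower, with medians of -0.52 and -0.42. DESeq2 called 33 and 15 of the list, all lower, beside 8.21% and 3.02% of all genes called in either direction. *Rpl22l1*, a paralog of a large-subunit protein, had 106 and 111 CPM in Control, 28.1, 47.6 and 46.9 with ZZZ3 depleted and 44.3, 49.1 and 39.8 with YEATS2 depleted (log2 fold changes -1.41 and -1.29, edgeR adjusted P 0.0187 and 0.0241). *Rpl13*, *Rps24* and *Rpl26* fell in both, and *Rpl15*, *Rpl31* and *Rpl39* passed with ZZZ3 depleted but not with YEATS2 depleted, while the direct comparison called none of these 3 (edgeR adjusted P 0.802 to 0.913). By library the ribosomal median was -0.75, -0.37 and -0.30 with ZZZ3 depleted and -0.40, -0.21 and -0.54 with YEATS2 depleted. ZZZ3-depleted replicate 1 was the lowest of its group in this list, as it was in the complex V genes outside F1. The same library was also the lowest of its group over all members (-0.20, beside -0.07 and -0.02) and in complexes II, III and IV. It was not the lowest in the core genes of complex I or the mtDNA-encoded subunits.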

How the data were processed

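RNA of 8 mouse ESC libraries was measured. Before deposition the authors trimmed the reads, aligned them with STAR 2.5.3a (mm10) and took reads with 1 alignment into HTSeq-count 0.6.1p1 (union mode, Ensembl), so the deposited values are raw counts with no normalization. Reads with several alignments or several genes went uncounted, which lowers genes with copies or overlaps.

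Symbols, exons and biotypes came from GENCODE on GRCm38. All genes kept by filterByExpr were fitted with edgeR 4.0.16 in R 4.3.3 (TMM, robust quasi-likelihood test, 1 mean per group, two-sided, Benjamini-Hochberg over 17532 genes). Library deviations used log2(CPM + 0.5). Alternatives were DESeq2 1.42.0, other scalings and filters, the compared groups alone, a replicate block, a lowess correction for GC content and length (span 0.3) and leaving out libraries. Copies were searched with BLAST+ 2.17.0. The fit was checked on simulated data with planted changes larger than any member showed against Control. That check does not cover changes of the size reported here.

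Named members were those called, those with the highest level per length or the most extreme fold change of each complex (mean of at least 2 CPM), complex II, the isoform families and called genes of other lists. A called gene of the cytosolic ribosomal list is not reported here. Members and lists were chosen with earlier results of these data known.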

Additional observations from a re-analysis of the deposited data

Results flagged for a closer look

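*Ndufb1-ps*, annotated as a long noncoding RNA on chromosome 12 and so outside the protein-coding members, had reads in every library, and its highest level was 93.3 CPM, far above the limit that a count of 0 allows. It measured 86.5 ± 9.69 CPM in Control (SD, n = 2), 54.4 ± 11.2 with ZZZ3 depleted (n = 3) and 60.8 ± 9.55 with YEATS2 depleted (n = 3), with no test made. The other 12 noncoding matches of the symbol rule, all processed pseudogenes, reached at most 0.230 CPM.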

How the results depend on the processing

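With ZZZ3 depleted, edgeR called 1 member. DESeq2 called 11 (8.21% of all genes), no filter 18 (5 higher, 13 lower, beside 4.67%), GC and length correction 3 (0.953%), that correction with the replicate block 1 (*Atp5k*, beside 0.376%), and a mean of at least 1 CPM (0.769%), only the compared groups (0%) and the replicate block (0.24%) 0 each. Leaving out 1 library gave 0 to 9, with 9 without replicate 2 (beside 4.84%) and 3 without replicate 3 (1.68%) of the ZZZ3-depleted libraries. Fits without any other auxin library called 0 members, beside 0.0173% to 0.161% of all genes. With YEATS2 depleted, where edgeR called 0, DESeq2 called 4 (3.02%), no filter 4 (1.68%), only the compared groups 5 (2.69%), GC and length correction 2 (0.753%), that correction with the replicate block 1 (0.325%), and leaving out 1 library 0 to 1 (1.25% without ZZZ3-depleted replicate 3). The YEATS2 fits that called 0 members without 1 auxin library called 0% to 0.773% of all genes. In the direct comparison no filter called 1 (*Cox8a*, beside 0.354%). The members' median for ZZZ3 ran from -0.15 to -0.053 over left-out libraries, the latter without ZZZ3-depleted replicate 1, and was -0.23 without Control replicate 1 and ZZZ3-depleted replicate 3 together, an alternative chosen after seeing the data, which called 0 members. For YEATS2 it ran from -0.15 (without YEATS2-depleted replicate 2) to -0.031 (without Control replicate 2). Signs turned for 4 named genes near 0. *Ndufaf3* (ZZZ3) went to -0.034 with GC and length correction, -0.079 with the block added, -0.12 to 0.57 over left-out libraries and -0.29 without both libraries. *Sdhd* (YEATS2) went to -0.016 with scaling on nuclear protein-coding genes, -0.016 with the block, -0.042 to 0.036 over left-out libraries and -0.0025 without both. *Ndufaf8* (YEATS2) went to -0.015 with GC and length correction and -0.058 with the block added, and *Sdhb* (YEATS2) to -0.0093 with that correction and block, -0.053 to 0.34 over left-out libraries and -0.039 without both. The cause was not tested. Replicate numbers did not pair the samples (correlations of same-numbered libraries -0.172 to 0.196), so the block fits share only a number.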
